A study of Rattus norvegicus with 32 samples.

Results

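The earliest lungs of a hemorrhage time course were compared with lungs of instrumented rats that were not bled. The comparison took the 3 arrays of lung removed 1 h after hemorrhage and 5 of the 6 arrays of sham lung, so 8 of the 32 arrays of the series, chosen by their labels. Sham replicate 2 carried a strong liver signal and was set aside as a check. All animals were male Sprague-Dawley rats of 280 to 300 g. The bled rats had been fitted under isoflurane with 2 arterial catheters and a telemetry device, had recovered for 7 to 10 days, and then lost 40% of their estimated blood volume. Sham rats were instrumented in the same way and were not bled, while the 3 control rats had neither instruments nor blood loss. The labels give no time at which sham lungs were taken. Each lung RNA was measured on a 2-colour spotted array against a common pool of RNA from rat organs, and a level is given as the log2 ratio of lung over pool after subtraction of the array's median. Nothing in the labels says that the arrays of a group came from separate animals, so a p-value here speaks to the spread of arrays, which may be technical. Precision is bounded by how few arrays there are.

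Loss of a large share of the blood volume lowers venous return and blood pressure, and the lung, which receives the whole cardiac output, is among the first organs to meet the catecholamines, glucocorticoids, cytokines and activated leukocytes released in shock. Immediate early genes, most of which encode transcription factors and phosphatases, can be transcribed within minutes of such signals without new protein synthesis. Cytokine, adhesion and vasoactive genes usually follow them. In whole tissue, fewer cells of a type and less RNA per cell cannot be told apart.

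Lung markers stood above the pool on all 8 arrays. Such genes also served to settle which way the ratio runs, so this does not test the label. Sftpc, the surfactant protein of type II pneumocytes, stood at 3.14, 3.50 and 4.26 at 1 h and between 2.22 and 4.48 in sham. Scgb1a1, the secretory protein of club cells, stood at 1.94 to 3.95 and 2.52 to 3.96, and Ager of type I pneumocytes at 1.65 to 1.85 and 1.06 to 2.38. The median of 31 heart and skeletal muscle genes lay between -1.35 and -1.01 at 1 h and between -1.56 and -0.82 in sham. The 42 liver genes lay between -0.46 and -0.24 at 1 h and between -0.54 and -0.12 in sham, against 2.06 on sham replicate 2, which was set aside for this signal. Over all features, pairs of 1 h arrays correlated at 0.564 to 0.682, pairs of the 5 sham arrays at 0.627 to 0.738, and 1 h with sham arrays at 0.453 to 0.730. The arrays carried values on 12537 to 12797 of 13056 spots.

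At 1 h no gene passed the test against sham. With limma, 0 of 5993 features had an adjusted p under 0.05 (0% called), and the lowest adjusted p was 0.155. At an unadjusted p under 0.05, called a nominal difference below, 342 features were higher (5.71%) and 303 lower (5.06%), which is 10.8% in all. Of all features 207 (3.45%) had all 1 h arrays above all 5 sham arrays and 185 (3.09%) had them below, which is 6.54% in all. All differences from sham given below are therefore measured differences that did not pass the test over all features.

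The gene with the smallest p was Vapb, which encodes a membrane protein of the endoplasmic reticulum that tethers it to other organelles. Vapb stood at 0.45, 1.05 and 0.59 in 1 h replicates 1, 2 and 3, and at -1.23, -0.84, 0.37, -0.80 and -0.51 in sham replicates 1, 3, 4, 5 and 6, the order used throughout. The 1 h arrays lay above all sham arrays, narrowly so above sham replicate 4, and above the controls, at -0.28, -0.20 and -0.28. The difference from sham was 1.30 ± 0.27 (SE, 3 against 5 arrays), or 2.46-fold, with an adjusted p of 0.155. Without sham replicate 4 it was 1.54 with an adjusted p of 0.00652 and would have been called.

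Fabp2, the fatty acid binding protein of enterocytes, stood at 0.49, 0.26 and -0.10 against -1.44, -1.07, -0.63, -0.85 and -0.85. The groups did not overlap, and the difference was 1.19 ± 0.28 with an adjusted p of 0.188. Psmd4 and Ube3a, genes of protein degradation, were also among the 12 higher genes of smallest p whose groups stood apart. Psmd4, a ubiquitin receptor of the proteasome, stood at 0.76, 1.67 and 1.08 against 0.23 to 0.53 in sham, a difference of 0.80 ± 0.22. Ube3a, a ubiquitin ligase, stood at 0.12, 0.72 and -0.37 against -1.19 to -0.42, a difference of 0.93 ± 0.25, and its lowest 1 h array lay close to the highest sham arrays. Trhr, the receptor of thyrotropin-releasing hormone, stood at 0.07, 1.51 and 0.89 against -0.52 to -0.22, a difference of 1.20 ± 0.34. The other genes of this group were Acan (aggrecan, 0.87 ± 0.24), Bace2 (a membrane aspartyl protease, 0.80 ± 0.22), Akp3 (intestinal alkaline phosphatase, 0.88 ± 0.25), Agtpbp1 (a carboxypeptidase that trims tubulin tails, 1.00 ± 0.28), Sncg (gamma-synuclein, 0.80 ± 0.23), Plekhf2 (an endosomal protein, 0.71 ± 0.21) and Bard1 (a ubiquitin ligase subunit of DNA repair, 2.22 ± 0.64). Their adjusted p lay between 0.240 and 0.265.

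Among the 12 genes that were lower, Bloc1s1, a subunit of the complex that forms lysosome-related organelles, had the smallest p. It stood at -1.27, -0.70 and -0.70 against 0.53, -0.16, 0.21, 0.06 and -0.17, with every 1 h array below every sham array. The difference was -0.99 ± 0.21 with an adjusted p of 0.155. Antkmt, a methyltransferase of the mitochondrial adenine nucleotide carrier, stood at 0.07, -0.62 and -0.32 against 0.50 to 0.98, a difference of -0.98 ± 0.21. Npffr2, a receptor of neuropeptide FF, stood at -1.92, -1.56 and -1.47 against -0.93 to 0.25, a difference of -1.36 ± 0.30. Both had an adjusted p of 0.155.

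Sqstm1, the autophagy receptor that links ubiquitin-tagged cargo to autophagosomes, was lower by a similar amount on each array. It stood at -1.49, -1.13 and -1.33 at 1 h against -0.49, -0.29, -0.43, -0.40 and 0.02 in sham and -0.32, -0.39 and -0.37 in the controls. The level at 1 h was 0.499 of that in sham, with an adjusted p of 0.179. Gas7, a growth arrest gene that acts on the cytoskeleton, differed by -1.34 ± 0.30 and Syap1, a synapse-associated protein, by -1.40 ± 0.32. Gas7 had an adjusted p of 0.0361 without sham replicate 4, and Syap1 one of 0.0278 without 1 h replicate 1. The rest were Cacna1b (the pore of N-type calcium channels, -1.56 ± 0.39), Luzp1 (an actin-associated protein, -1.07 ± 0.28), Musk (a receptor kinase of the neuromuscular junction, -1.25 ± 0.32), Pak3 (a kinase downstream of Rac, -1.30 ± 0.34), Tnrc6b (a partner of Argonaute in microRNA silencing, -0.81 ± 0.22) and Mxd3 (a Max-binding repressor, -0.87 ± 0.24), with adjusted p of 0.234 to 0.240. Sham replicate 2, which was not in the fit, is a weak check on the sham level. It correlated with the other sham arrays at only 0.016 to 0.170. Its type II pneumocyte median was -0.69, against 0.60 to 1.39 on the 5 sham arrays in the fit. It lay on the sham side of all 1 h arrays for 9 of the 11 higher genes with a value and for 8 of the 12 lower genes. The exceptions were Psmd4 at 0.87, Sncg at -0.02, Gas7 at -0.38, Syap1 at -1.63, Pak3 at -1.69 and Tnrc6b at -0.67, where that array lay among the 1 h arrays or beyond them. With it in the fit the difference of Tnrc6b was -0.48.

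**Figure D1:**
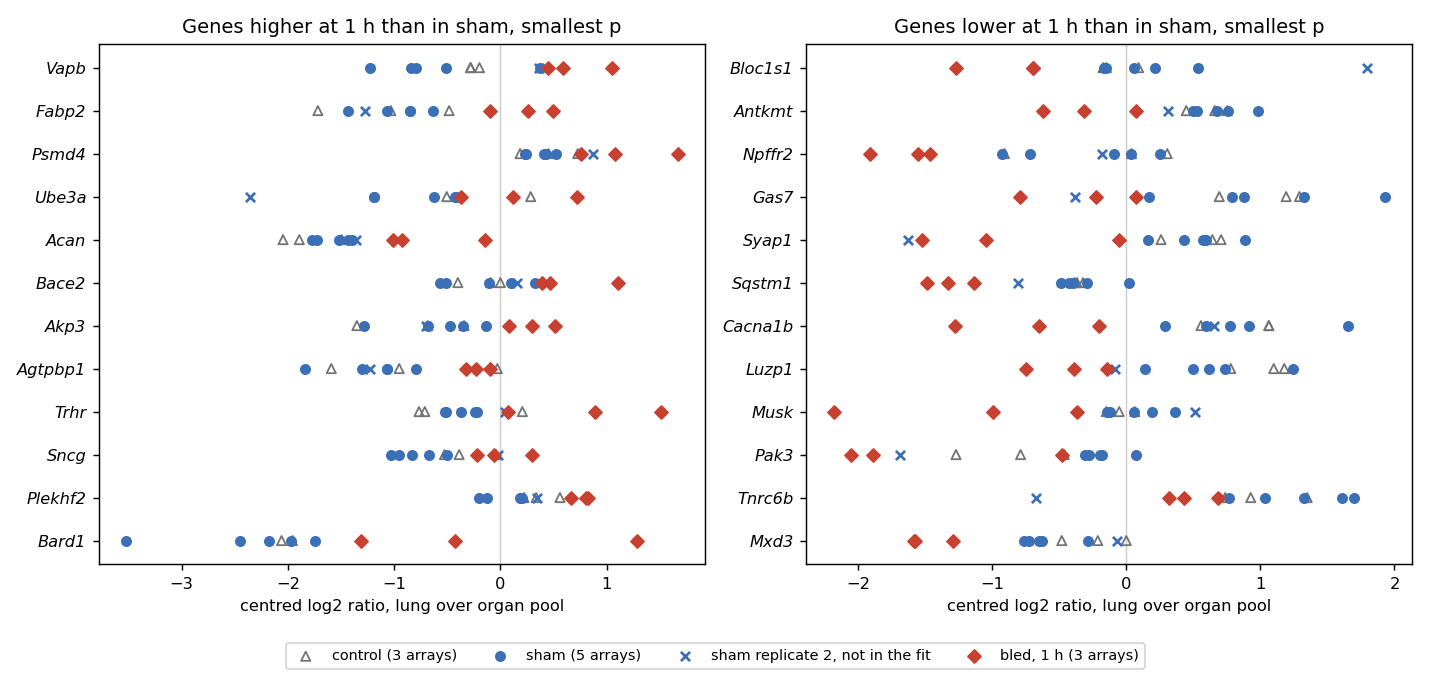
Centred log2 ratio (lung over organ pool, x axis) of the 24 genes with the smallest p among those whose groups did not overlap, 12 higher and 12 lower at 1 h. Each symbol is 1 array: red diamonds are the 3 lungs at 1 h, blue circles the 5 sham lungs, grey triangles the 3 control lungs, and the blue cross is sham replicate 2. The red and blue symbols are separate in every row by the choice of genes, and for Vapb the gap to sham replicate 4 is narrow.

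Of the 33 gene lists examined, the one with the largest median difference held the genes of cytoplasmic ribosomal proteins, the structural proteins of both ribosomal subunits. Their median difference from sham was 0.59 over 49 tested genes, against -0.01 over all features. Of the 49 genes 43 were above 0 (48.8% over all features), 15 were nominally higher (5.71% over all features) and 1 was lower (5.06%). None passed the test over all features. Rpl19 stood at 0.51, 1.70 and 1.34 against -1.05, -0.34, 1.00, -0.23 and -0.46, a difference of 1.40 ± 0.47 with an adjusted p of 0.302. Rps21 stood at 1.84, 2.84 and 2.44 against 1.26, 1.18, 2.47, 0.73 and 0.95, a difference of 1.05 ± 0.40. In both genes 4 sham arrays lay below the 1 h arrays and sham replicate 4 lay among them. Rpl36, the nominally lower gene, stood at 0.76, 0.19 and 0.27 against 0.83 to 1.56, a difference of -0.70 ± 0.32 that was -0.44 with sham replicate 2 included. Rpl3l, a paralog expressed mostly in muscle, is counted among the 49. Ribosomal protein genes have many processed pseudogenes, and a spotted probe cannot separate near-identical copies.

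Sham replicate 4 also stood with the 1 h arrays over the whole list. The median of the 49 genes on each array was 0.94, 1.51 and 1.35 at 1 h, 0.73, 0.59, 1.33, 0.44 and 0.57 in sham, and 0.57, 0.63 and 0.44 in control lung. Sham replicate 4 was the highest of the 5 sham arrays in 41 of the 49 genes, against 25.9% of named genes in general. Only Rpl35a, at 0.78, 1.27 and 1.44 against 0.16 to 0.77, had all 1 h arrays above all sham arrays. Leaving out each array in turn moved the median difference between 0.41 and 0.77. Later lungs spread widely on this measure, from -0.15 at 72 h to 2.11 at 3 h, and the list's median difference was 0.75 against control and 0.41 against the mean of later times. Translation factors showed less of a shift, with a median of 0.13 over 24 genes, 1 nominally higher and 2 lower.

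**Figure D2:**
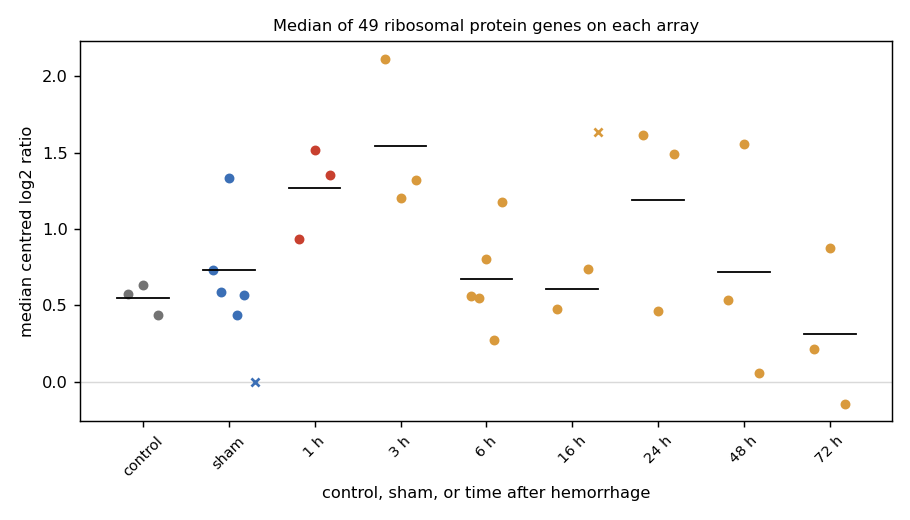
Median centred log2 ratio of the 49 ribosomal protein genes (y axis) on each array, by group (x axis); bars are group means, and the crosses are sham replicate 2 and 16 h replicate 3, which were not in the fit. The 1 h arrays stand at 0.94 to 1.51, sham replicate 4 stands at 1.33 among them, and the other 4 sham arrays lie between 0.44 and 0.73.

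Ribosomal protein genes are known for a run of pyrimidines at the transcription start, the TOP motif, through which their messenger RNAs are translated under the control of mTOR. The starts of 6 of the nominally higher genes whose window holds CTTTC or CTCTT are shown, because a pyrimidine run is the family's known sequence feature. They are followed by 2 genes whose window holds neither, which does not mean that these lack a pyrimidine run. Each run covers 20 bases before and 10 bases from the start annotated by RefSeq on GRCr8, 5′ to 3′ on the sense strand, with CTTTC or CTCTT in capitals, which can overlap each other.
Rpl19: gagcccgcgaccagcaagCTCTTTCCTTTC
Rps21: tggaagaacgagccacttcCTTTCtgtgtt
Rps15a: aaccccggcgttttCTTTCcacagtcacca
Rpl29: acagcgggcCTTTCTCTTTCTCTTccggtc
Rpl35a: gcgcggcgggtcttgccttcCTCTTTCcgc
Rpl31: ccatcccacaatccctcgcgcCTTTCcttt
These windows are at chr10:83519044-83519073 (+), chr3:187724018-187724047 (+), chr1:181860275-181860304 (-), chr8:115947623-115947652 (+), chr11:81235012-81235041 (-) and chr9:49143091-49143120 (+), in the same order. Rpl36, which was lower, and Rpl39, which was nominally higher, have neither run of letters in this window:
Rpl36: tcttcctgtccggccgccatcggaaagctg
Rpl39: cagcgtcttctaatcgcgttcttccggcct
They lie at chr9:1533760-1533789 (+) and chrX:121195887-121195916 (-). Of the 49 genes 43 had an entry in the promoter table. In 27 of those 43 (62.8%) the window held at least 1 of the 2 motifs, against 7.38% of 27457 annotated starts. Of the 15 nominally higher genes 11 had an entry, and 6 of these (54.5%) held a motif, so the share was no higher in them than over the family. On the opposite strand 1 of the 43 held one, against 6.88% of all starts. A match describes the letters in this window only.

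Immediate early genes were spread around the sham level at 1 h. Their median difference from sham was -0.10 over 33 genes, with 5 nominally higher and 2 lower, and 0 passed the test. For this list and those below, the nominal share over all features was 5.71% higher and 5.06% lower, or 10.8% in all. Fos stood at -0.49, -0.23 and -0.48 against -0.59 to 0.08 in sham, a difference of -0.14 ± 0.25. Egr1 stood at -1.83, -1.60 and -1.94 against -1.72 to -0.48, a difference of -0.63 ± 0.34. The 1 h and sham arrays overlapped in both, as they did for Jun, at 0.55 to 0.78 against 0.59 to 1.36.

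The highest of the list was Dusp1, the phosphatase that inactivates p38 and JNK kinases and is also induced by glucocorticoids. Dusp1 stood at 1.66, 2.22 and 2.48 against 1.08, 1.01, -0.01, 0.80 and 1.70, with only sham replicate 6 reaching the lowest 1 h array. The difference was 1.20 ± 0.39, or 2.30-fold, with an adjusted p of 0.292. Klf4, a zinc finger factor of endothelium and epithelium, stood at 0.92, 1.60 and 0.94 against -0.72 to 0.68, above every sham array, with a difference of 0.84 ± 0.32. Junb (0.69 ± 0.28), the antiproliferative gene Btg1 (0.75 ± 0.32) and the ERK phosphatase Dusp5 (0.92 ± 0.40) were nominally higher with overlapping groups. Klf2, the flow-responsive factor of endothelium, was lower on 2 of 3 arrays, at 0.35, -0.78 and -1.41 against 0.05 to 0.89, a difference of -1.06 ± 0.34. Homer1, a synaptic scaffold with an activity-induced form, stood at -0.44, -0.80 and -0.93 against -0.42 to 0.09.

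Of 23 glucocorticoid-induced genes 1 was nominally higher, again Dusp1, and 0 were lower, with a median of 0.13. Among 39 genes of catecholamine signalling 2 were nominally higher and 1 lower (10.8% over all features in either direction), with a median of -0.03. Arrb1, the beta-arrestin that uncouples beta-adrenergic receptors, stood at 0.21, 0.12 and -0.81 against 0.24 to 0.94, a difference of -0.87 ± 0.25 with an adjusted p of 0.262. Sham replicate 2, which was not in the fit, stood at -0.83. Grk6, a kinase that marks activated receptors for arrestin, stood at 0.50, 1.18 and 0.84 against -0.04 to 0.60, a difference of 0.49 ± 0.23. The alpha receptor Adra2a differed by 0.52 ± 0.25, with groups that overlapped.

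Cytokine, chemokine and NF-kB genes had a median difference of -0.08 over 60 genes, and 0 passed the test. Of these genes 6 were nominally higher and 2 lower (10.8% over all features in either direction). Both forms of interleukin 1 were among the higher genes. Il1b stood at 1.06, 1.51 and 0.94 against 0.42, 0.16, 0.57, 0.25 and 0.44, a difference of 0.80 ± 0.25 with an adjusted p of 0.278. Il1a stood at -0.06, 0.43 and 0.37 against -1.24 to -0.15, a difference of 0.79 ± 0.30. In both, every 1 h array lay above every sham array. Ccr1, a receptor of inflammatory CC chemokines, stood at 0.34, 1.78 and 0.96 against -0.37 to 0.46, a difference of 1.00 ± 0.31, with replicate 1 inside the sham range.

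The other cytokine genes that were nominally higher were Il18, at 0.20, -0.08 and 0.70 against -1.09 to -0.24, the T cell chemokine Ccl5, at 0.59 to 0.75 against -0.80 to 0.40, and the signalling inhibitor Socs2 (1.13 ± 0.39). Cxcl10, an interferon-induced chemokine, was at the sham level in replicate 1 and lower in the others, at -0.26, -1.76 and -1.88 against -0.56 to 0.38, a difference of -1.09 ± 0.33. Stat3, the transducer of interleukin 6 signals, stood at -0.33, -0.99 and -0.80 against -0.23 to 0.03, below every sham array. Il6 itself differed by -0.09 ± 0.36, and Tnf stood at -2.08, -3.91 and -1.64 against -2.03 to -0.84. Of 15 neutrophil genes 0 were nominally higher and 1 lower, the gelatinase Mmp9, at -1.35, -2.33 and -1.01 against -1.15 to 0.32. S100a9, an abundant neutrophil protein, stood at 1.16, 0.99 and 1.93 against -0.62, -0.00, 1.78, -0.45 and -0.09, so that sham replicate 4 alone reached the 1 h arrays.

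Among 52 vasoactive mediator genes the median difference was -0.07, with 4 nominally higher and 3 lower (10.8% over all features in either direction). The higher genes included both bradykinin receptors, which mediate vasodilation and vascular leak. Bdkrb1, the inducible receptor, stood at 0.22, 1.14 and 0.66 against -0.88, -0.50, -0.13, -0.73 and 0.10, a difference of 1.10 ± 0.34 with an adjusted p of 0.278. Bdkrb2, the constitutive receptor, stood at 0.68, 1.59 and 0.84 against 0.15, 0.15, 0.22, 0.12 and 0.29, a difference of 0.85 ± 0.30. Neither group overlapped its sham group in the fit, though for Bdkrb1 sham replicate 2, at 1.12, lay among the 1 h arrays. Alox5, which starts leukotriene synthesis, differed by 0.48 ± 0.18, and Gch1, which makes the cofactor of nitric oxide synthases, by 1.31 ± 0.56 with sham replicate 4 above the 1 h arrays.

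On the lower side were Ptgis, Ace and Ptger4. Ptgis, the prostacyclin synthase, stood at -0.28, -0.48 and -0.49 against 0.85, 0.20, -0.05, 0.20 and 0.28, below every sham array. The difference was -0.72 ± 0.19 with an adjusted p of 0.240. Ace, the angiotensin-converting enzyme of lung capillaries, which also breaks down bradykinin, stood at 0.50, -1.67 and -0.58 against 0.05 to 0.94, a difference of -0.96 ± 0.41 that rests on replicates 2 and 3. The prostaglandin E receptor Ptger4 stood at -0.34 to -0.03 against 0.08 to 0.76. Of 18 endothelial genes 1 was nominally higher and 1, Ace, lower, with a median of -0.17. The higher gene was Kdr, the main VEGF receptor, at 0.67, 0.96 and 0.28 against -0.45 to 0.32, while its ligand Vegfa stood at 0.23 to 0.68 against 0.56 to 1.54. The summed endothelial level, taken as the list's median on each array, was 0.29 to 0.64 at 1 h and 0.24 to 0.72 in sham.

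Ion transport genes set the movement of salt and water across the alveolar and airway epithelium. Their median was 0.06 over 25 genes, with 5 nominally higher and 2 lower (10.8% over all features in either direction). Slc9a3, a sodium-hydrogen exchanger of apical membranes, stood at -1.81, -1.97 and -2.50 against -1.44, -0.99, -1.35, -0.94 and -0.68, a difference of -1.01 ± 0.29 with an adjusted p of 0.262. Atp1b1, the beta subunit that carries the sodium pump to the membrane, stood at 0.83, 1.61 and 1.59 against -0.02, 0.61, 1.39, 0.12 and 0.09, a difference of 0.90 ± 0.34. For Slc9a3 the groups in the fit stood apart, though sham replicate 2, at -2.06, lay among the 1 h arrays. For Atp1b1 sham replicate 4 lay among the 1 h arrays. Its paralog Atp1b2 differed by -0.75 ± 0.30. Also nominally higher were the chloride-loading cotransporter Slc12a2 (1.05 ± 0.45), the chloride channel Clcn2 (0.73 ± 0.33), the potassium channel Kcnj1 (0.63 ± 0.25) and the exchanger Slc9a2 (0.62 ± 0.26).

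Epithelial lists differed in their medians. The 19 genes of surfactant and type II pneumocytes had a median of 0.01, with 0 nominally higher and 1 lower. That gene was Sftpb, the surfactant protein needed for lamellar bodies, at 2.59, 2.33 and 2.16 against 3.89, 2.95, 2.99, 2.50 and 3.03. Its difference of -0.71 ± 0.32 turned to 0.20 when sham replicate 2, at -2.38, was included. The 8 type I pneumocyte genes had a median of -0.24, with 2 above 0 and 1 nominally lower. That gene was Akap5, a kinase anchoring protein, at 1.73 to 2.05 against 1.97 to 2.77, and its difference of -0.59 ± 0.23 was -0.03 with sham replicate 2 included. The 3 genes of ciliated cells had a median of 0.30, with 1 nominally higher. Of 7 club cell genes none differed nominally in either direction. Of 7 erythroid genes 0 were above 0, with a median of -0.23, and 0 differed nominally. Hba-a1, an alpha globin, stood at -0.09, -0.03 and -1.16 against -1.45 to 0.50.

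In the remaining lists nominal differences ran in both directions, beside a share of 10.8% over all features. Hypoxia and glycolysis genes (39, median 0.02) had 1 higher and 2 lower. Aldoa, a glycolytic aldolase, stood at -1.32, -0.94 and -0.17 against -0.25 to 0.14. Mitochondrial respiration genes (44, median -0.02) had 4 higher and 3 lower, among them the ATP synthase subunits Atp5pf at 0.68 ± 0.26 and Atp5f1a at -0.67 ± 0.31. The 37 chaperone genes (median 0.03) had 2 higher and 3 lower. The inducible chaperone Hspa1a, at -0.97, -1.12 and -1.25 against -0.65 to -0.07, and its activator Hsf1, at -0.09 to 0.51 against 0.72 to 0.92, lay below every sham array in the fit. With sham replicate 2, at -2.03, the difference of Hspa1a moved from -0.74 to -0.47. Hspa8, the constitutive relative, stood at 0.90 to 1.65 against -0.67 to 1.20.

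Oxidative stress genes (41, median 0.03) had 3 higher and 1 lower. Xdh, xanthine dehydrogenase, which in its oxidase form makes superoxide after ischemia, stood at 0.24, 0.78 and 0.62 against -0.72 to 0.07, a difference of 0.99 ± 0.32. Gclm, a subunit of the enzyme that limits glutathione synthesis, differed by -0.89 ± 0.29. Clock genes (15, median -0.00) had 2 higher and 1 lower. Nfil3, a repressor of the clock output, stood at 0.56, 1.17 and 0.58 against -0.17 to 0.27, Bhlhe41 at 0.53 to 1.97 against 0.14 to 0.50, and Per2 at 0.00, -1.88 and -1.11 against -0.45 to 0.19. Among 26 genes of apoptosis and p53, 3 were nominally higher, such as the death activator Bcl2l11 (0.86 ± 0.30), and 2 lower, such as the survivin gene Birc5 (-0.97 ± 0.34).

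Markers of other organs that differed nominally are given for completeness. Apoa1 of liver stood at -0.43, 0.53 and 0.27 against -2.20, -1.33, 0.04, -1.47 and -0.92, and 6 of 42 liver genes were nominally higher and 1 lower, while the list's level overlapped between the groups. Gfap, a glial filament gene, stood at 2.26, 3.70 and 2.96 against 1.16, 1.02, 2.86, 0.48 and 1.11, and Gap43, of growing axons, at 0.39, -1.93 and 0.30 against 0.46 to 1.47. In Apoa1 and Gfap it was again sham replicate 4 that lay among the 1 h arrays. Of 14 kidney genes 1 was nominally higher, Slc5a2 (1.07 ± 0.42), and 2 were lower, such as Slc12a3 (-0.80 ± 0.30). The groups overlapped in both, and for Slc5a2 sham replicate 4, at 1.73, lay among the 1 h arrays. Mast cell genes (13, median 0.25) had Mcpt9 at 0.79 ± 0.38 (0.45 with sham replicate 2) and the chymase Cma1 at -0.67 ± 0.24. The interferon list (17, median -0.06) had Oas1a at 0.81 ± 0.30 and Cxcl10, given above. Of 13 macrophage and 21 lymphocyte genes 0 differed nominally in either direction. The part of cell makeup in the values of single genes was not tested.

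**Figure D3:**
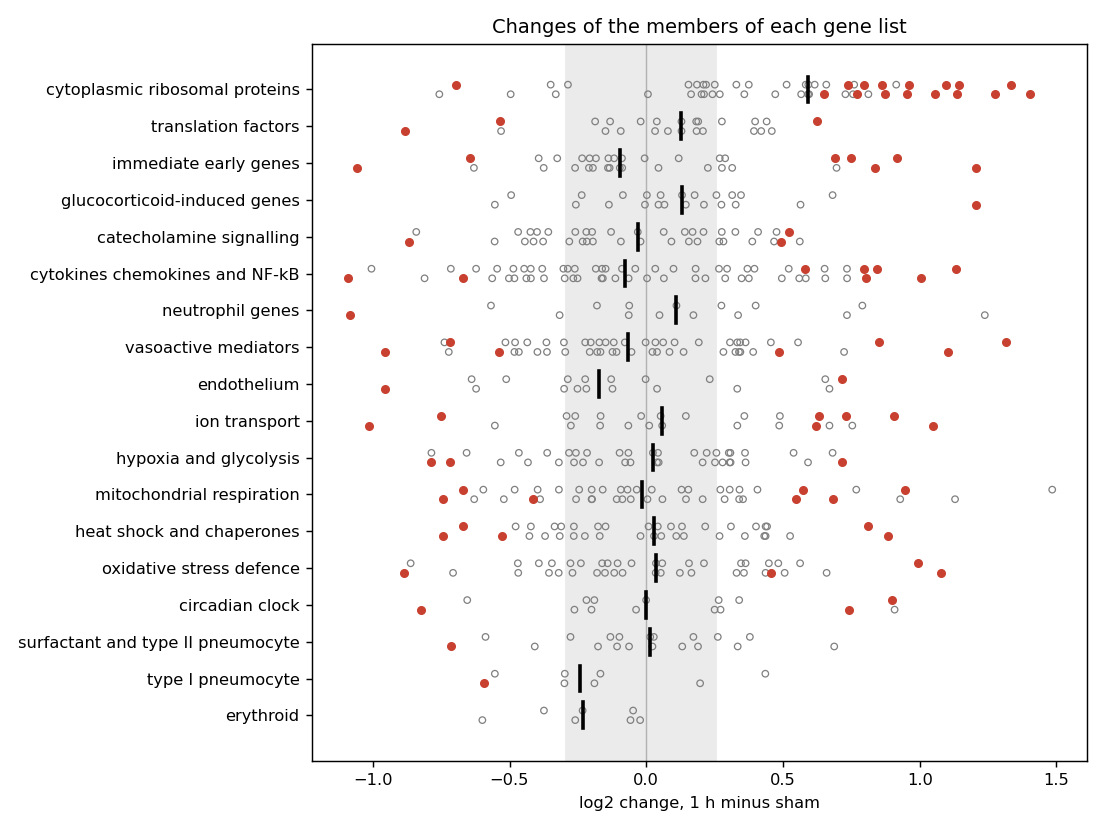
Log2 difference between 1 h and sham (x axis) for each tested member of 18 gene lists (rows). Each circle is 1 gene, filled red where the unadjusted p was under 0.05, black bars are list medians, and the grey band covers the middle of the distribution over all named genes, -0.29 to 0.26. The ribosomal median of 0.59 lies to the right of the band, and the other list medians lie within it.

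Against the 3 control lungs, which had no instruments, limma also called 0 of 5993 features (0%), with 935 nominal differences (15.6%) and a lowest adjusted p of 0.143. These values use the same 1 h arrays, so they are set beside the sham values as a description. Luzp1 differed by -1.45 from control and -1.07 from sham, and Mxd3 by -1.25 and -0.87. Npffr2 differed by -1.46 and -1.36, Fabp2 by 1.30 and 1.19, and Bdkrb2 by 1.19 and 0.85. Ube3a was further from sham (0.93) than from control (0.27), since its measured controls lay at -0.50 and 0.29. Klf2 stood at 1.22, 0.64 and 0.50 in control and differed by -1.40.

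Lungs at 1 h did differ from the later lungs of the course. Against the mean of the groups at 3, 6, 16, 24, 48 and 72 h (19 arrays, without 16 h replicate 3), limma called 60 of 5993 features (1%), 34 higher at 1 h (0.567%) and 26 lower (0.434%), with 891 nominal differences (14.9%). Of the 60, 29 higher and 24 lower features had a gene name. The calls rested on 1 h replicate 2: without it 0 were called (460 nominal, lowest adjusted p 0.0802), against 63 without replicate 1 and 37 without replicate 3. Replicate 2 was the outermost 1 h array for 31 of the 53 named genes, against 46.2% of named genes in general. All of the genes described next were chosen after their values were seen. They are a part of the 53, those of smallest adjusted p or also in a gene list or named against sham. The sham arrays do not enter the differences of this comparison, but they enter its p-values through the shared estimate of the spread.

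In a first set of these genes, Npffr2, Bloc1s1, Fabp2, Trhr, Slc9a3 and Pak3, the 1 h arrays stood apart from the sham arrays in the fit. For Slc9a3 and Pak3 sham replicate 2 lay among the 1 h arrays. The same 1 h arrays enter both comparisons, so the values against sham are no separate support. Npffr2 was 1.32 ± 0.26 (SE) lower at 1 h than the mean of later times on the log2 scale, with an adjusted p of 0.0204, and each of the 19 later arrays, at -1.32 to 0.07, lay above all 3 arrays at 1 h. Its differences from sham were -1.36 at 1 h and then 0.05, -0.33, -0.12, 0.00, 0.16 and 0.05 at the 6 later times. Bloc1s1 went from -0.99 at 1 h through -0.43 and -0.23 to 0.18 at 72 h, and was 0.90 ± 0.18 lower than the later mean.

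Fabp2 was 1.19 above sham at 1 h and between -0.27 and 0.31 at later times, and every later array, at -1.47 to -0.20, lay below the 1 h arrays (1.12 ± 0.24, adjusted p 0.0206). Trhr, at 0.38 above sham at 3 h and -0.62 from it at 72 h, differed by 1.24 ± 0.29 (adjusted p 0.0350), and Slc9a3 in the other direction with -1.07 ± 0.25 (adjusted p 0.0347) and 18 of 19 later arrays above the 1 h arrays. Pak3 differed by -1.23 ± 0.29, with only 11 of 19 later arrays above the 1 h arrays. For Trhr 16 of the 19 lay below them. The Pak3 controls at -1.27 and -0.79 lay within its 1 h range, and the control at -0.46 lay just above it. Sncg, at 0.98 ± 0.20, and the growth factor gene Fgf8, at 0.95 ± 0.19, were above sham at 1 h by 0.80 and 0.69, near it from 3 to 24 h, and at -0.93 and -1.09 from it at 72 h. In genes of translation initiation the 1 h arrays overlapped sham. Eif2s1, the alpha subunit of initiation factor eIF2, was 0.62 above sham at 1 h and -0.56 to -0.18 at later times (1.02 ± 0.20). Eif3a, a scaffold of initiation factor eIF3, differed by -1.37 ± 0.33 in the other direction and was above sham at every later time, by 1.22 at 72 h.

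A second set crossed the sham level between 1 h and the later times. Atp1b1 was 0.90 above sham at 1 h, 0.29 above it at 3 h, and between -1.15 and -0.96 from 6 h on. Its 1 h arrays at 0.83, 1.61 and 1.59 lay above all 19 later arrays, which ranged from -1.57 to 0.80 with a median of -0.52, and the difference of 1.73 ± 0.29 had an adjusted p of 0.00522. Smad4, the common partner of the receptor-activated Smads in TGF-beta signalling, had the same adjusted p. It stood at -0.79, -2.27 and -0.19 at 1 h, at -0.52 to -0.02 in sham and at 0.05 to 1.25 on the later arrays, so its 1 h arrays overlapped sham while its later arrays stood above both. The difference from the later mean was -1.78 ± 0.29, against -0.83 ± 0.34 from sham. Gpbp1, a GC-rich promoter binding protein, was -1.13 from sham at 1 h and 0.20 to 1.01 later (-1.77 ± 0.34).

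The same course in the lower direction was seen in Sult1e1, the estrogen sulfotransferase, at -1.23 ± 0.25, and in Agpat4, an acyltransferase of phospholipid synthesis, at -2.24 ± 0.46 with replicate 2 at -4.14 and the others at -1.38 and -0.94. Defa24, an alpha-defensin whose close relatives a probe may not separate, was 1.15 from sham at 1 h and -1.17 from it at 72 h (1.63 ± 0.33). Tcf4, a basic helix-loop-helix factor, was -0.84 from sham at 1 h and -0.71 at 3 h, and 0.45 to 0.69 from 6 h on (-1.19 ± 0.25). Grem1, an antagonist of bone morphogenetic proteins, differed by -1.84 ± 0.39, and Prdx4, a peroxiredoxin of the endoplasmic reticulum, by -1.89 ± 0.42. Prdx4 stood at -2.50, -2.32 and -1.87 at 1 h, and sham replicates 5 and 6 at -2.43 and -2.01 and control replicates 1 and 3 at -3.98 and -2.20 lay in or below that range.

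The last set was at or near the sham level at 1 h and away from it later. Cdh1, the E-cadherin of epithelial junctions, stood at -0.58, 0.12 and -0.85 at 1 h and at 0.18, -0.13, -1.02, -0.24 and -0.38 in sham, a difference of -0.12 ± 0.32. At later times it was between -1.95 and -0.69 from sham, and the 1 h lungs were above the later mean by 1.36 ± 0.28. Ctsh, a cysteine protease of type II pneumocytes and macrophages that processes surfactant proteins, stood at 1.60, 1.29 and 1.46 at 1 h against 1.24 to 1.56 in sham. It was -0.47 from sham at 6 h and -1.37 at 48 h, and 0.82 ± 0.17 higher at 1 h than the later mean.

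The potassium channel Kcna3 of lymphocytes (1.09 ± 0.22), the aldehyde dehydrogenase Aldh3a2 (1.16 ± 0.25), the RNA helicase Ddx39b of messenger RNA export (1.23 ± 0.26) and the carnitine octanoyltransferase Crot (0.79 ± 0.17) belonged to this set, with differences from sham of 0.05, -0.01, -0.03 and 0.14 at 1 h. Hnrnpu (1.04 ± 0.22), Hspbp1 (0.98 ± 0.21), Uba3 (0.92 ± 0.19) and Adcy4 (1.15 ± 0.25) differed from sham by 0.19 to 0.46 at 1 h. On the lower side were the secretory pathway calcium pump Atp2c2 (-1.01 ± 0.21) and the erythroid ammonium transporter Rhag (-1.49 ± 0.31), with differences from sham of -0.38 and -0.37. Over the 29 higher genes the median was 0.28 for 1 h minus sham and 0.71 for sham minus the later mean. Over the 24 lower genes these medians were -0.81 and -0.54.

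**Figure D4:**
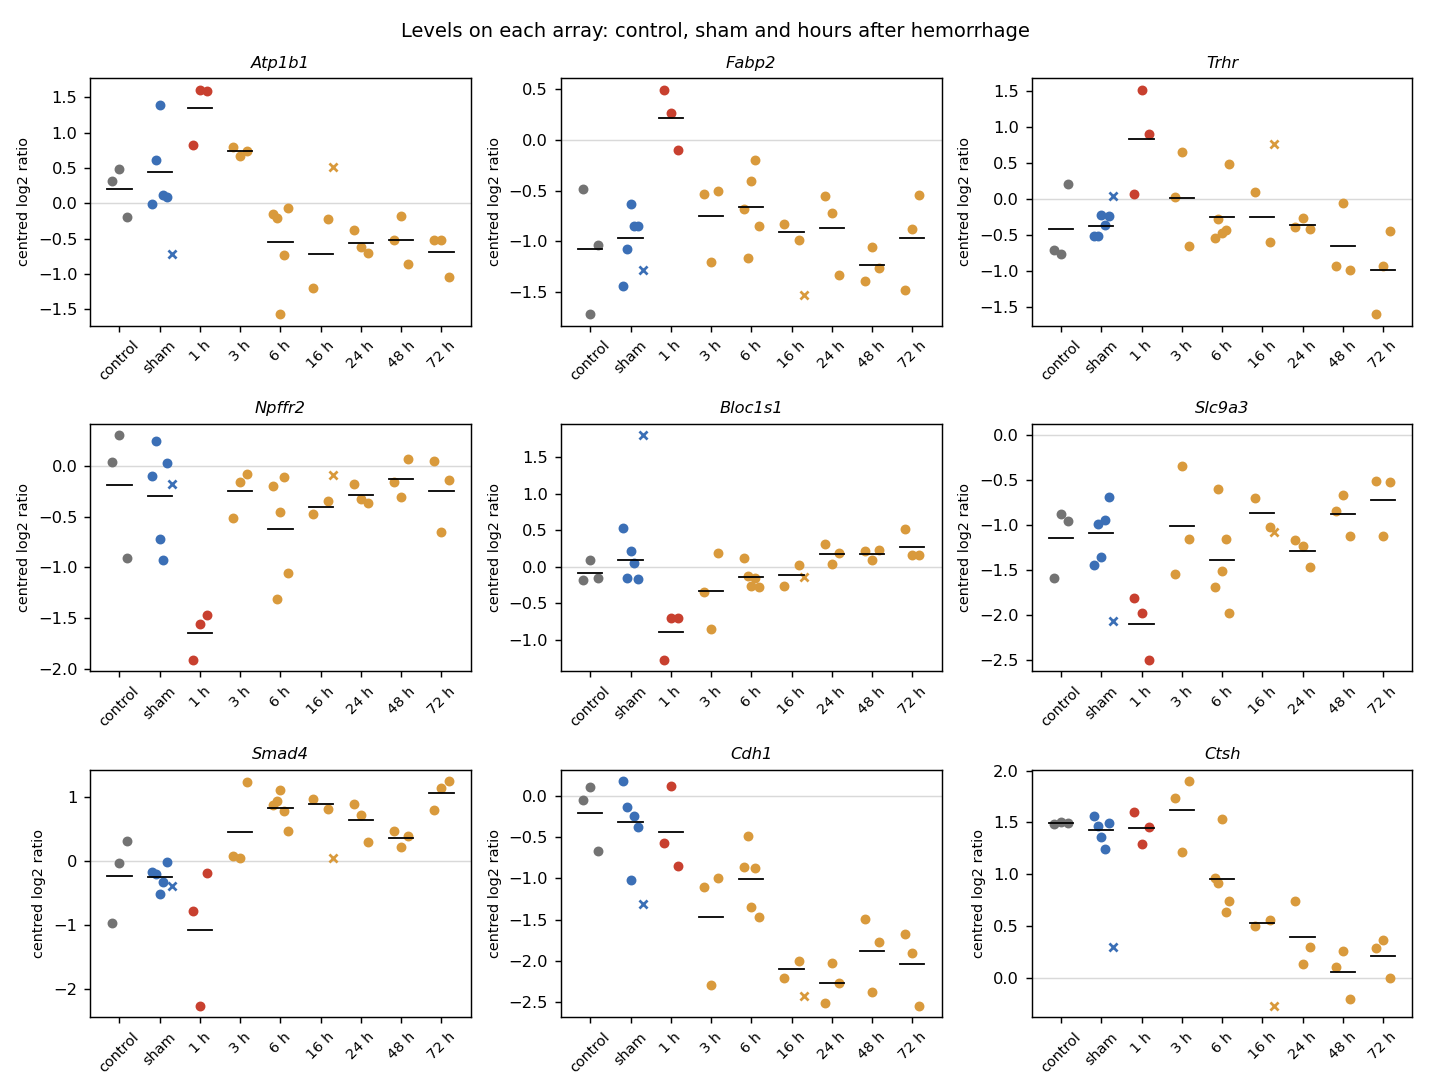
Centred log2 ratio (y axis) of 9 genes on each array by group (x axis), with group means as bars and with crosses for sham replicate 2 and 16 h replicate 3, which were not in the fit. Fabp2, Trhr, Npffr2, Bloc1s1 and Slc9a3 stand apart at 1 h from the sham arrays in the fit and have means nearer to sham at 3 h. Atp1b1 and Smad4 cross the sham level. Cdh1 and Ctsh overlap sham at 1 h and have lower means later, Cdh1 from 3 h on and Ctsh from 6 h on. The Smad4 mean at 1 h is drawn down by replicate 2 at -2.27.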

How the data were processed

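The authors deposited 1 log2 ratio per spot (lung over organ pool). On the linear scale they are multiples of 0.01 (within 0.001). The sources used here do not give dyes, scanner or normalization. The pool is of 10 organs per the labels' protocols, which name 9. The direction was read from lung genes standing above the pool. Each array was centred on its median, and spots of 1 gene symbol were averaged (115 genes have more than 1 sequence; none of the genes named here does). The test was run where every 1 of the 9 groups had values on at least 2 arrays. It was the limma 3.58.1 moderated test after lmFit and eBayes, taken two-sided (R 4.3.3). It used 1 fit over 30 arrays and 9 groups without sham replicate 2 and 16 h replicate 3. Adjusted p-values are Benjamini-Hochberg over 5993 features, and calls are at 0.05. The calculation was tested on simulated data.

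Against sham, named genes were up to 12 per direction of smallest p with groups apart. Added were the member of smallest p in each list and direction if under 0.05 unadjusted, and members of a list singled out for their role. Against later times, named genes were called genes of smallest adjusted p, and called genes also in a list or named against sham. The lists and members were chosen with earlier results of these data known. Promoter sequences are RefSeq's (GRCr8). Alternatives were centring, quantile normalization, the 2 arrays set aside, filters, replicate block and each array left out.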

Additional observations from a re-analysis of the deposited data

Results flagged for a closer look

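In the sham group 4 of 108 genes tested had 1 array far from the other 4 (3.70%), and chance alone gives about 1 in 20. Aldh3a2 stood at 1.08 on sham replicate 3 and at -0.14 to 0.14 on the others, and Mxd3 at -0.28 on sham replicate 3 against -0.77 to -0.63. Atp5pf stood at -0.54 on sham replicate 1 against 0.08 to 0.31. Gfap stood at 2.86 on sham replicate 4 against 0.48 to 1.16, close to its level at 1 h.

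Genes whose difference from sham at 1 h was unlike that at later times, by the test of 1 h against the later mean, fall in both directions. The sham level cancels in this difference. Listed are those of the 53 called named genes with the smallest adjusted p, or that were also in a gene list or named against sham. The others are left out, whatever their size, among them Chek1 (-1.98), Riok3 (-1.49) and Alas1 (1.13). Higher at 1 h, on the log2 scale, were Atp1b1 (1.73), Defa24 (1.63), Cdh1 (1.36), Trhr (1.24), Ddx39b (1.23), Aldh3a2 (1.16), Adcy4 (1.15), Fabp2 (1.12), Kcna3 (1.09), Hnrnpu (1.04), Eif2s1 (1.02), Hspbp1 (0.98), Sncg (0.98), Fgf8 (0.95), Uba3 (0.92), Ctsh (0.82) and Crot (0.79). Lower at 1 h were Agpat4 (-2.24), Prdx4 (-1.89), Grem1 (-1.84), Smad4 (-1.78), Gpbp1 (-1.77), Rhag (-1.49), Eif3a (-1.37), Npffr2 (-1.32), Sult1e1 (-1.23), Pak3 (-1.23), Tcf4 (-1.19), Slc9a3 (-1.07), Atp2c2 (-1.01) and Bloc1s1 (-0.90). None of these calls held without 1 h replicate 2.

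Liver genes were high on the arrays set aside. Sham replicate 2 had a liver median of 2.06, and the median of 16 h replicate 3 was 1.41, while the remaining 30 arrays lay between -0.64 and 0.21.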

How the results depend on the processing

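Against sham the count of called features was 0 in every alternative that kept all arrays of both groups, with the replicate block too. Leaving out each array in turn gave 0 to 3. The 3 without 1 h replicate 1 were Timp2 (-3.19), Gjb6 (-2.40) and Syap1 (-1.81), all lower, and the 2 without sham replicate 4 were Vapb (1.54) and Gas7 (-1.55). Timp2 and Gjb6 were at the sham level on 1 h replicate 1 and were chosen after their values were seen. Against control each array left out gave 0 to 7, with 7 (all lower) without 1 h replicate 1 and 1 without 1 h replicate 2. Against later times the 60 calls became 29 with sham replicate 2 included and 39 with the replicate block, and 0 to 63 with each 1 h array left out. The split of 34 higher and 26 lower was 36 and 18 without centring, and leaving out 1 h replicate 1 turned it to 19 and 44. No direction changed in any alternative among the 53 named genes, of which 0 kept the call through all of them. The ribosomal median of 0.59 was 0.47 with quantile normalization and 0.57 with the block, and the difference of Sftpb turned to 0.20 with sham replicate 2. The deviations of equal-numbered 1 h and sham arrays correlated at -0.03 and -0.04, and those of the other pairs at -0.24 to 0.17. These values cannot show whether equal numbers pair samples, since only replicates 1 and 3 had an equal-numbered sham array in the fit. No spot signal over background was analysed here, so its limit on weak genes is unknown.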
